A study of Homo sapiens with 36 samples.

Results

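The serine synthesis pathway consists of 3 enzymes, PHGDH, PSAT1 and PSPH, and their transcripts were followed in every condition of an RNA-seq experiment on A2780 ovarian cancer cells. They were chosen by name, as 3 of the 57820 genes in the count table. PHGDH oxidises the glycolytic intermediate 3-phosphoglycerate at the entry of the pathway. PSAT1 then transfers an amino group from glutamate, and PSPH removes the phosphate to release serine. Serine feeds glycine, one-carbon units for nucleotides, glutathione and lipids, and cells that lack it in the medium usually raise these enzymes through the transcription factor ATF4, the main effector of the amino acid response.

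The 36 libraries made up 12 conditions of 3 libraries each. All were of A2780, an established human cell line. The parental cells were platinum sensitive (wt), their resistant derivative had been obtained by chronic exposure to cisplatin (cis), and cis SSP cells were cis cells that had resumed growth after prolonged serine/glycine deprivation. Cells of each line were grown in complete medium or in medium lacking serine and glycine (-SG), without or with carboplatin (carbo), a platinum drug that crosslinks DNA. Deprived medium was a homemade RPMI with dialysed serum, and the labels do not say whether the complete medium of the sequenced cells was made in the same way. The labels give the dose as 6 M, whereas 6 µM was the dose in other assays of the study. In the study the 3 libraries per condition are described as technical replicates, so that p-values cover the spread between libraries and not that between independent cultures. Since the libraries were numbered line by line, differences between lines and any difference between early and late library numbers cannot be told apart.

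PHGDH (ENSG00000092621.7) lies on the forward strand of chromosome 1 at 120191034 to 120286841 (GRCh37). PSAT1 (ENSG00000135069.9) lies on the forward strand of chromosome 9 at 80912041 to 80945009, and PSPH (ENSG00000146733.9) on the reverse strand of chromosome 7 at 56078744 to 56119297. All are protein coding, and counts were made on their exons. No annotated gene overlapped them. The pseudogene PSPHP1 held 2260 counts over all libraries, 4.41% of those of PSPH, and reads of these near-identical copies may have been divided between them. The PSAT1 pseudogenes PSAT1P1 to PSAT1P4 held at most 0.012% of the PSAT1 counts each. The 250 bases upstream of the transcription start of PHGDH and PSAT1 are shown (RefSeq, GRCh38.p14, forward strand, chr1:119711684-119711933 and chr9:78296875-78297124). The levels of all 3 genes moved together within wt and within cis SSP cells, but no promoter sequence of PSPH was available. Capitals mark CCAAT, the box bound by NF-Y, searched on both strands together with TGATGNAA, the composite element of C/EBP and ATF factors.
PHGDH: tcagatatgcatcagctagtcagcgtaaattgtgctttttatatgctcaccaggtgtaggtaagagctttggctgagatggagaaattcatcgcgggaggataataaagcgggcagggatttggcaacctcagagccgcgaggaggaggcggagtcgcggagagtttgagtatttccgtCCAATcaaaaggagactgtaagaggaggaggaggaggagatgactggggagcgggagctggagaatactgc
PSAT1: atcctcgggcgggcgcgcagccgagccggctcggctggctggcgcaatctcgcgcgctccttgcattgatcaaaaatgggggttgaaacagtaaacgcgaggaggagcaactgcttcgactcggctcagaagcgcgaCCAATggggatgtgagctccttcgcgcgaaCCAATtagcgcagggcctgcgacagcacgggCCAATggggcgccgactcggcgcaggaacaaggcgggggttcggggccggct
The PHGDH window holds 1 CCAAT and the PSAT1 window holds 3. Of 35116 promoter windows of this length, 32% held at least 1 CCAAT and 2.93% at least 3. TGATGNAA occurred in neither window, and in 3.14% of all windows.

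Total counts on genes ranged from 13074937 to 20441582 per library. Libraries of a condition were compared by the chi-square of their counts, averaged over genes, which is near 1 where sampling noise alone separates them. Leaving aside libraries 11, 25 and 32, pairs lay between 1.20 and 13.5. Library 25 of cis SSP and library 32 of cis SSP -SG differed from their partners by 103 to 123, and they had the lowest shares of reads on no feature, 4.95% and 4.21%. Library 11 of wt -SG carbo differed from its partners by 24.6 and 25.6. Libraries 23 and 24 of cis -SG carbo had 17.9% and 14.9% of reads on no feature, against at most 9.31% elsewhere. Test results of the enzymes that change without these libraries are given with and without them. Where libraries 23 and 24 are left out, cis -SG carbo keeps 1 library, which is assumed to vary like those of the other conditions in the fit. VIM, a mesenchymal marker, was high in every library (1523 to 4747 CPM, which are counts scaled to a common library size), whereas the epithelial marker EPCAM reached at most 2.31 CPM and the ovarian markers PAX8 and MUC16 at most 10 and 3 counts and CDH1 at most 6 counts. Of the other epithelial and ovarian markers, KRT18 was counted in every library (0.345 to 42.2 CPM), KRT8 reached 6.56 CPM, KRT19 7.92 CPM and WT1 1.38 CPM. Most of this list was thus low or near 0, with KRT18 the exception, and the ovarian origin rests on the label. The other mesenchymal marker listed, CDH2, ranged from 9.69 to 1396 CPM. It differed between lines, with a median of 201 CPM in wt, 39.4 in cis and 1146 in cis SSP cells. Of the markers of other cell types, PTPRC (leukocytes) had at most 1 count. The fibroblast genes COL1A1 and DCN differed between lines, with a median of 510 CPM of COL1A1 in wt, 3.23 in cis and 12.5 in cis SSP cells, and of 0.383, 0.393 and 22.4 CPM of DCN in the same order, and their part in the differences between lines was not tested.

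The levels of the enzymes were compared first, in CPM scaled over the 36 libraries by TMM, which corrects library sizes for composition. All 3 were highest in cis SSP -SG cells, with 623 ± 155 CPM of PHGDH, 1563 ± 32.4 of PSAT1 and 134 ± 15.9 of PSPH (SD, n = 3). Library 32 held the highest PHGDH value (802 CPM); the other libraries of that condition, at 540 and 528 CPM, lay beside the 525 to 537 CPM of wt -SG. PSAT1 and PSPH were lowest in wt -SG carbo cells, at 425 ± 17.6 and 45.6 ± 1.38 CPM. PHGDH was lowest in cis carbo cells, at 129 ± 3.85 CPM. From the lowest to the highest condition PHGDH spanned 4.83-fold, PSAT1 3.68-fold and PSPH 2.95-fold. Per kilobase of transcript PSAT1 was the most abundant of the 3 in every condition (192 to 709 CPM per kb), followed by PHGDH (69.1 to 334) and PSPH (23.1 to 68.1). In these bulk libraries a lower level in each cell and fewer cells with a high level cannot be told apart.

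**Figure D1:**
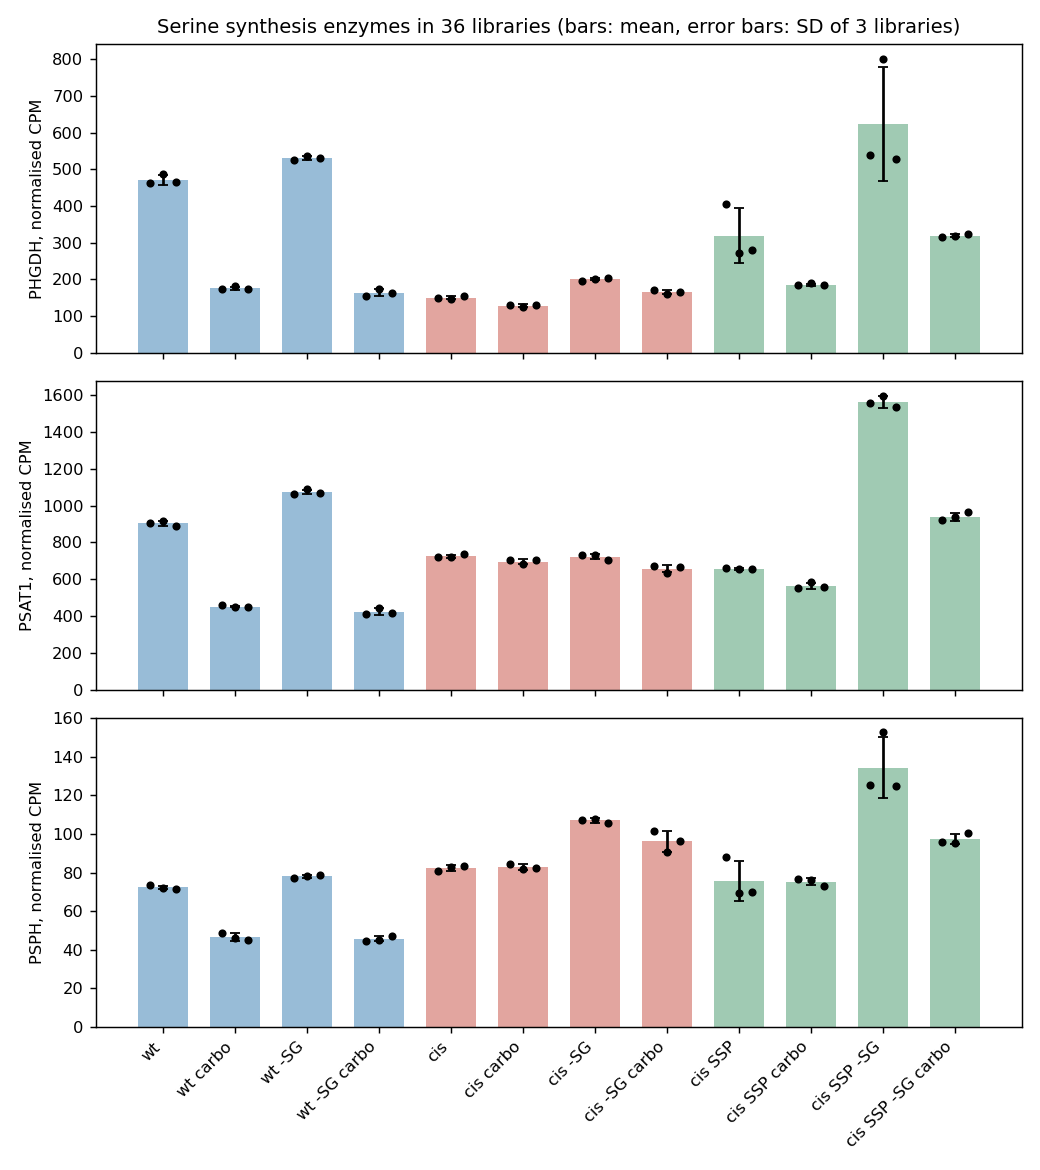
Normalised counts (CPM) of PHGDH, PSAT1 and PSPH (vertical axes) in the 12 conditions; bars are means, error bars the SD of 3 libraries and points the libraries, with wt in blue, cis in red and cis SSP in green. In wt cells all 3 genes are lower in both carboplatin conditions, in cis cells PSAT1 stays between 656 and 724 CPM, and in cis SSP cells all 3 are highest without serine and glycine.

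The order of the PHGDH levels began with cis SSP -SG, wt -SG (531 ± 5.94 CPM) and wt (472 ± 14), followed by cis SSP -SG carbo (320 ± 3.52) and cis SSP (319 ± 75.5). It went on with cis -SG (201 ± 3.47), cis SSP carbo (186 ± 2.65), wt carbo (177 ± 4.16), cis -SG carbo (166 ± 4.66), wt -SG carbo (164 ± 10.4), cis (151 ± 4.36) and cis carbo (SD, n = 3 each). Neighbours in this order overlapped in 4 of 11 steps, namely cis SSP -SG with wt -SG, cis SSP -SG carbo with cis SSP, cis -SG carbo with wt -SG carbo, and wt -SG carbo with cis. The overlap of cis SSP with cis SSP -SG carbo came from library 25 (406 CPM), the other cis SSP libraries being at 271 and 281 CPM. In the order of PSAT1, 2 of 11 steps overlapped, and in that of PSPH 6 did. The 4 cis conditions stood together at 656 to 724 CPM of PSAT1, a range of 1.10-fold, whereas wt spanned 2.53-fold and cis SSP 2.77-fold. PSPH spanned 1.71-fold in wt, 1.30-fold in cis and 1.79-fold in cis SSP cells.

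The question of the combined conditions was what carboplatin did to the pathway in cells that had to make their own serine. In wt cells without serine and glycine, carboplatin lowered all 3 enzymes. PHGDH stood at 525, 537 and 532 CPM in wt -SG and at 155, 175 and 163 CPM in wt -SG carbo. This was a log2 fold change of -1.69 ± 0.0577 (SE, edgeR adjusted p = 1.49e-08), and no library of one condition reached the range of the other. PSAT1 went from 1064, 1088 and 1070 CPM to 411, 444 and 418 CPM, by -1.34 ± 0.0499 on the log2 scale (adjusted p = 2.49e-08). PSPH went from 77.1, 78.3 and 78.6 CPM to 44.5, 45 and 47.1 CPM, by -0.77 ± 0.0541 (adjusted p = 1.37e-06). Again the groups did not overlap. Adjusted p-values are those of edgeR's quasi-likelihood test after Benjamini-Hochberg adjustment over all genes tested, here and in what follows. In this comparison 68.9% of the 14467 genes tested were called at an adjusted p under 0.05, 34.3% higher and 34.6% lower, so that a call by itself says little. By size, 8.74% of genes changed at least as much as PHGDH, 13.9% as much as PSAT1 and 31.8% as much as PSPH.

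In cis cells without serine and glycine the same treatment moved the enzymes little. PHGDH went from 197, 201 and 204 CPM to 171, 162 and 165 CPM, a log2 fold change of -0.27 ± 0.0322 (adjusted p = 8.58e-05). PSAT1 went from 730, 730 and 707 CPM to 669, 635 and 665 CPM (-0.13 ± 0.0287, adjusted p = 0.00591), and PSPH from 107, 108 and 106 CPM to 101, 90.7 and 96.3 CPM (-0.15 ± 0.0411, adjusted p = 0.0218). All 3 were called lower, as were 11.6% of the 14476 genes tested, while 10.9% were called higher and 22.5% in either direction. The 3 calls rested on a small spread: leaving out 1 library at a time, that of PSPH was lost in 5 of 6 fits and that of PSAT1 in 1 of 6, and in a single fit over the 36 libraries the adjusted p-values were 0.174, 0.0590 and 0.233. Without libraries 23 and 24 the values were -0.22 for PHGDH, -0.10 for PSAT1 and -0.07 for PSPH, with the spread estimated from the 3 untreated libraries alone.

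In cis SSP cells without serine and glycine, carboplatin went with lower values of all 3 genes, but the test depended on library 32. PHGDH stood at 540, 802 and 528 CPM in cis SSP -SG and at 316, 320 and 323 CPM in cis SSP -SG carbo, so that the groups did not overlap and the high value was that of library 32. The log2 fold change was -0.95 ± 0.180, which was not called (adjusted p = 0.0759). PSAT1, at 1559, 1597 and 1533 CPM against 921, 936 and 964 CPM, was called lower (-0.72 ± 0.0896, adjusted p = 0.0225), a call that was lost in 5 of 6 fits that left out 1 library and kept without library 32. PSPH, at 126, 153 and 125 CPM against 95.9, 95.5 and 100.3 CPM, was not (-0.45 ± 0.112, adjusted p = 0.127). Of the 13541 genes tested 1.47% were called, 1.17% higher and 0.295% lower. Without library 32 all 3 were called lower, by -0.72 ± 0.0261 for PHGDH (adjusted p = 2.63e-14), -0.69 ± 0.0239 for PSAT1 (adjusted p = 1.13e-14) and -0.34 ± 0.0365 for PSPH (adjusted p = 2.92e-07), with 41.1% of the genes called. PHGDH and PSAT1 thus fell by about the same log2 amount once that library was left out.

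The lines were compared directly by an interaction term over 4 conditions. The fall of PHGDH under carboplatin in deprived medium was smaller in cis than in wt cells by 1.40 ± 0.0734 on the log2 scale (adjusted p = 2.61e-11), that of PSAT1 by 1.18 ± 0.0658 (adjusted p = 5.78e-11) and that of PSPH by 0.60 ± 0.0796 (adjusted p = 3.95e-06), against 55.4% of 15803 genes called. Between cis SSP and cis cells only PSAT1 passed, with a response lower by -0.54 ± 0.0887 in cis SSP (adjusted p = 0.00972), against 2.64% of 14870 genes called. The differences for PHGDH (-0.63, 95% interval -1.03 to -0.23, adjusted p = 0.0982) and PSPH (-0.26, -0.52 to -0.0016, adjusted p = 0.297) were not called. Without library 32 they were called, at -0.47 (adjusted p = 4.59e-08) and -0.22 (adjusted p = 0.00661), with 29.8% of genes called. The PSAT1 call was lost without libraries 23 and 24 (adjusted p = 0.145).

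The converse question was what withdrawal of serine and glycine did in cells already under carboplatin. In wt cells no enzyme was called. PHGDH was 175, 181 and 174 CPM in wt carbo and 155, 175 and 163 CPM in wt -SG carbo, and the groups overlapped through library 11 (log2 fold change -0.12, 95% interval -0.24 to 0.0064, adjusted p = 0.394). PSAT1 was 458, 449 and 449 CPM against 411, 444 and 418 CPM without overlap (-0.10, -0.21 to 0.0050, adjusted p = 0.392). PSPH was 48.7, 46.2 and 44.8 CPM against 44.5, 45 and 47.1 CPM (-0.04, -0.17 to 0.088, adjusted p = 0.759). Of 14454 genes 0.720% were called, 0.623% higher and 0.0969% lower. The chi-square between libraries of these 2 conditions had a median of 7.03 over 9 pairs, against 22.5 between wt and wt -SG. The same distance was 5.74 between cis SSP carbo and cis SSP -SG carbo, against 20.5 without carboplatin, and 69.9 against 81.7 in cis cells. The medium of the wt -SG carbo libraries is known from the labels only, and no value here checks it, which bears on every comparison with that condition. Without library 11, PHGDH (-0.16 ± 0.0294, adjusted p = 8.53e-06) and PSAT1 (-0.13 ± 0.0212, adjusted p = 2.52e-07) were called lower and PSPH was not (adjusted p = 0.814), with 10.8% of genes called. With or without that library, the intervals hold no rise of PHGDH above 0.0064 on the log2 scale.

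In cis cells under carboplatin, deprivation raised PHGDH and PSPH and left PSAT1 uncalled. PHGDH rose from 131, 124.5 and 131 CPM to 171, 162 and 165 CPM, by 0.40 ± 0.0409 on the log2 scale (adjusted p = 5.95e-07). PSPH rose from 84.5, 81.8 and 82.4 CPM to 101, 90.7 and 96.3 CPM, by 0.25 ± 0.0492 (adjusted p = 3.52e-04). The groups of both did not overlap. PSAT1, at 703, 681 and 704 CPM against 669, 635 and 665 CPM, was not called (-0.05, 95% interval -0.12 to 0.032, adjusted p = 0.267), and its direction turned to 0.04 when library sizes were used without TMM. Of 14236 genes 70.2% were called, 35.2% higher and 35% lower, and 50.1% changed at least as much as PHGDH, so that the calls of both enzymes were near the background.

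In cis SSP cells under carboplatin, deprivation raised all 3 enzymes. PHGDH rose from 184, 189 and 185 CPM to 316, 320 and 323 CPM, by 0.79 ± 0.0264 on the log2 scale. PSAT1 rose from 552, 585 and 557 CPM to 921, 936 and 964 CPM, by 0.74 ± 0.0246 (adjusted p = 2.83e-17 for both). PSPH rose from 76.4, 76.0 and 73.1 CPM to 95.9, 95.5 and 100.3 CPM, by 0.38 ± 0.0368 (adjusted p = 7.39e-08). No groups overlapped, and no library that stands apart was involved. Here 9.76% of 13747 genes were called, 4.93% higher and 4.83% lower. A change as large as the 1.72-fold rise of PHGDH was found in 0.546% of genes, one as large as the 1.67-fold rise of PSAT1 in 0.662% and one as large as that of PSPH in 5.25%.

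The difference between lines in this response was tested as an interaction. Between cis and wt cells the response of PHGDH differed by 0.48 ± 0.0699 (adjusted p = 2.23e-05) and that of PSPH by 0.26 ± 0.0747 (adjusted p = 0.00845). That of PSAT1 was not called (0.02, 95% interval -0.11 to 0.14, adjusted p = 0.832), and 50.9% of 15661 genes were. Between cis SSP and cis cells PHGDH differed by 0.40 ± 0.0430 (adjusted p = 2.38e-08) and PSAT1 by 0.80 ± 0.0395 (adjusted p = 1.52e-14), against 56.3% of 14767 genes called. PSPH, at 0.14 ± 0.0568 (adjusted p = 0.0413), lost its call with DESeq2, under other scalings and filters and in the fit over 36 libraries, and without libraries 23 and 24 it was 0.02 (adjusted p = 0.783).

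**Figure D2:**
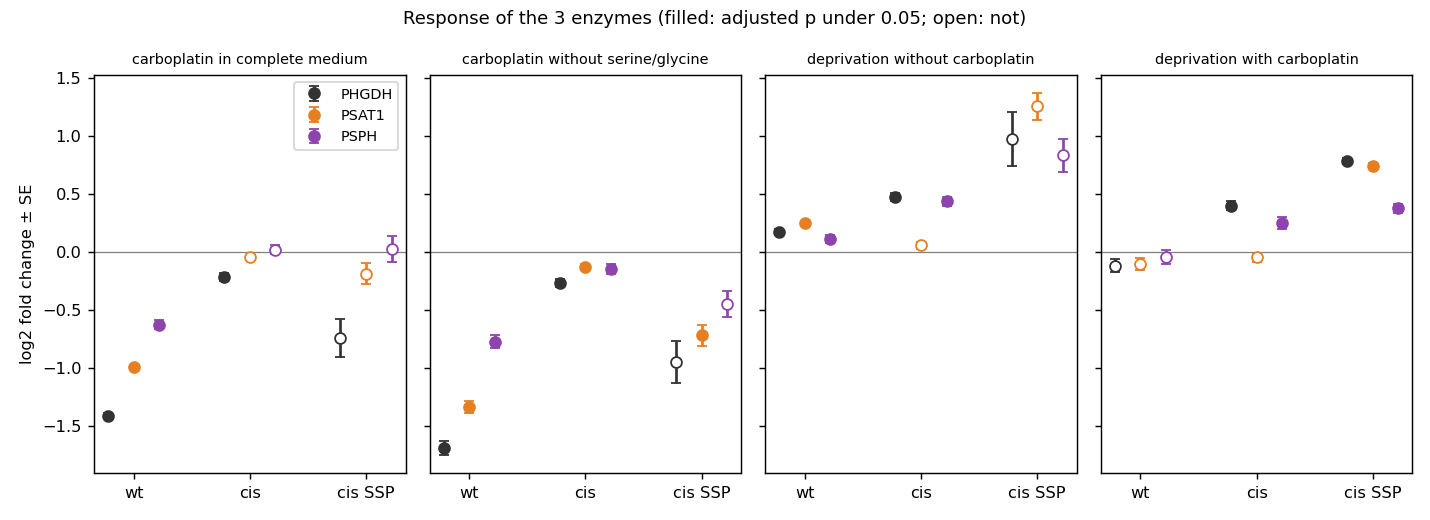
Log2 fold change with its SE (vertical axis) of PHGDH, PSAT1 and PSPH for 4 treatment comparisons in wt, cis and cis SSP cells; filled points passed an adjusted p under 0.05 and open points did not. Under carboplatin without serine and glycine PHGDH is at -1.69 in wt, -0.27 in cis and -0.95 in cis SSP cells, and deprivation under carboplatin gives -0.12, 0.40 and 0.79.

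The single treatments show how the combination compares. Without carboplatin, deprivation raised all 3 enzymes in wt cells, by 0.17 ± 0.0236 for PHGDH (adjusted p = 3.91e-06), 0.25 ± 0.0198 for PSAT1 (adjusted p = 1.80e-09) and 0.11 ± 0.0358 for PSPH (adjusted p = 0.0134), against 49.2% of 14284 genes called, 24.1% higher and 25.1% lower. In cis cells PHGDH rose by 0.47 ± 0.0314 (adjusted p = 3.08e-18) and PSPH by 0.44 ± 0.0359 (adjusted p = 4.98e-15), and PSAT1 was not called (0.06, adjusted p = 0.0502), against 75% of 14122 genes called, 37.6% higher and 37.4% lower. The values in cis SSP cells were 0.97 ± 0.231, 1.26 ± 0.116 and 0.84 ± 0.142, and none of them was called (adjusted p = 0.435, 0.0788 and 0.244), with 0.0218% of 13736 genes called, all 3 of them higher. That comparison holds both libraries 25 and 32. Without them the 3 changes were 0.96, 1.25 and 0.86, all called (adjusted p = 7.14e-21, 1.21e-24 and 9.27e-16), with 35.9% of genes called.

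In complete medium carboplatin lowered all 3 in wt cells, with log2 fold changes of -1.41 ± 0.0215 for PHGDH, -0.99 ± 0.0187 for PSAT1 (adjusted p = 1.06e-263) and -0.63 ± 0.0401 for PSPH (adjusted p = 2.27e-47), against 77.8% of 14639 genes called. In cis cells PHGDH alone was called, at -0.21 ± 0.0328 (adjusted p = 1.79e-05, 20.1% of 13458 genes called), and PSAT1 and PSPH were at -0.05 and 0.02. None was called in cis SSP cells (-0.74, -0.18 and 0.03, adjusted p = 0.0837, 0.376 and 0.920, 2.72% of 13885 genes called). Without library 25 PHGDH was lower (-0.55, adjusted p = 8.10e-15), PSAT1 was lower (-0.19, adjusted p = 1.78e-07) and PSPH was higher (0.13, adjusted p = 0.0118), with 41.2% of genes called.

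The combined conditions share libraries with the single treatments, so that these comparisons are not independent of each other. Whether carboplatin acted differently in the 2 media was tested within each line. In wt cells the fall under carboplatin was deeper without serine and glycine, by -0.29 ± 0.0603 for PHGDH (adjusted p = 0.00211) and -0.35 ± 0.0487 for PSAT1 (adjusted p = 6.34e-05), and not called for PSPH (-0.15, 95% interval -0.29 to -0.014, adjusted p = 0.0944). The share of genes called was 27.7% of 15247. In cis cells no enzyme was called (-0.05, -0.08 and -0.16, adjusted p = 0.569, 0.210 and 0.0552, 12.1% of 14797 genes called). The same held for cis SSP cells (-0.19, -0.52 and -0.46, adjusted p = 1, 0.167 and 0.638, 0.0281% of 14231 genes). Without libraries 25 and 32 all 3 interactions of cis SSP cells were called, at -0.18 (adjusted p = 0.00125), -0.51 (adjusted p = 3.81e-12) and -0.48 (adjusted p = 1.25e-07), with 15% of genes called.

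In the combined condition itself the lines differed gene by gene. PHGDH was not called between cis and wt cells, with a log2 difference of 0.04 and a 95% interval of -0.11 to 0.20 (adjusted p = 0.591). It had 171, 162 and 165 CPM in cis -SG carbo and 155, 175 and 163 CPM in wt -SG carbo. PSAT1 was higher in cis by 0.66 ± 0.0661 (adjusted p = 2.87e-06) and PSPH by 1.11 ± 0.0740 (adjusted p = 8.42e-08), against 74.2% of 15086 genes called. When libraries were scaled by their totals, the median of all genes moved up by 0.134, and PHGDH was then at 0.18 and called (adjusted p = 0.0274). Between cis SSP and cis cells PHGDH was higher by 0.93 ± 0.0334 (adjusted p = 3.71e-12) and PSAT1 by 0.50 ± 0.0313 (adjusted p = 2.02e-09), against 73.8% of 14313 genes called. PSPH was not called (-0.0039, 95% interval -0.10 to 0.093, adjusted p = 0.941), and without TMM, which moved all genes down by -0.136, it was at -0.14 (adjusted p = 0.0105).

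The genes around each enzyme were set beside it. For PHGDH these were the 62 to 77 tested genes within 10 Mb. Under the treatments their median stayed near 0 (-0.01 to 0.10 on the log2 scale), while PHGDH moved between -1.69 and 0.97. Between lines in the combined condition it was otherwise. In cis against wt cells the neighbours had a median of -1.02 and 64 of 74 were below 0, with PHGDH at 0.04. In untreated cells PHGDH was lower in cis (151 CPM) than in wt (472 CPM), and the neighbours were not compared between untreated lines. In cis SSP against cis cells the median was 0.95, 58 of 69 neighbours were above 0, and PHGDH was at 0.93. Over all genes of these comparisons the medians were 0.02 and 0.0042. The neighbours of PSAT1 had medians of 0.15 and -0.21 in the same comparisons and those of PSPH 0.07 and -0.05, so that among the 3 loci the neighbourhood of PHGDH stood apart.

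**Figure D3:**
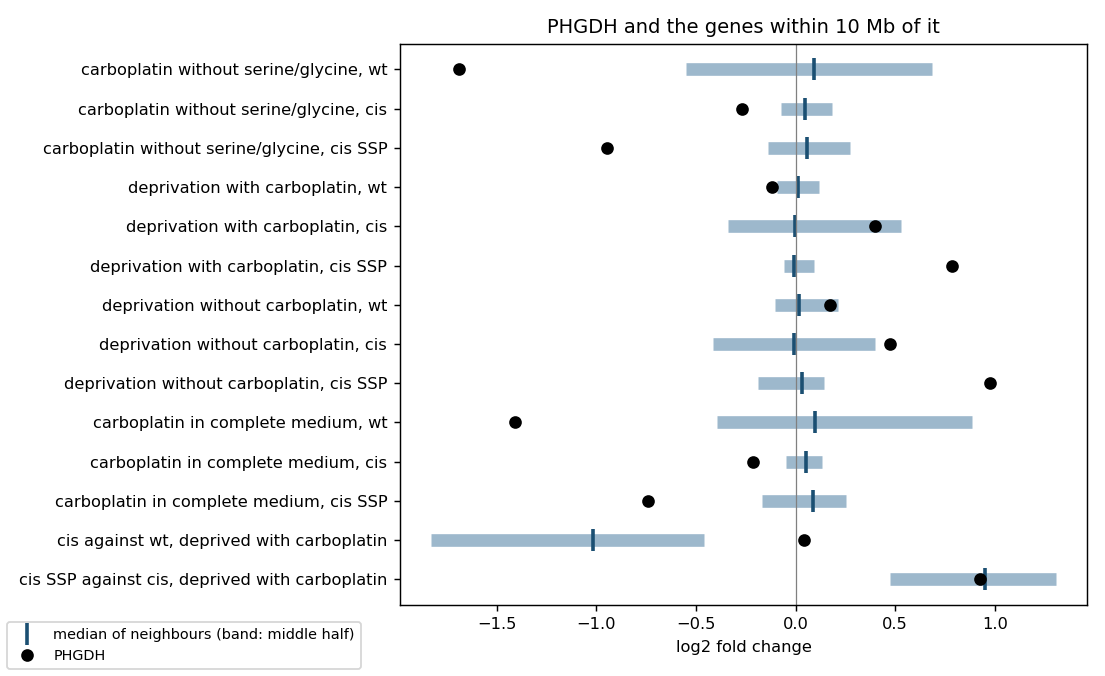
Log2 fold change (horizontal axis) of PHGDH (black points) and of its neighbours, those tested genes at most 10 Mb away (bars mark the median, bands the interquartile range) in 14 comparisons of 2 conditions. PHGDH lies outside the interquartile range of its neighbours in the carboplatin comparisons of all lines. On deprivation it lies outside in cis SSP cells with and without carboplatin, in cis cells without it and in wt cells with it. In wt cells without carboplatin and in cis cells with it, PHGDH lies inside. In cis against wt cells, both deprived with carboplatin, the neighbours have a median of -1.02 and PHGDH is at 0.04. In cis SSP against cis cells of that condition PHGDH lies near their median.

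Coordination of the 3 enzymes was described over the 12 condition means of log2 CPM. These means share lines, and those of a line share the cells, so no test is given. PHGDH and PSAT1 had a Pearson r of 0.79, PSAT1 and PSPH of 0.79, and PHGDH and PSPH of 0.37 (Spearman rho 0.67, 0.62 and 0.24). After the mean of each line was subtracted, all 3 pairs had an r of 0.94 (rho 0.88, 0.90 and 0.97). The weak relation of PHGDH with PSPH over all conditions thus went with the difference between lines, where cis had 151 CPM of PHGDH against 472 in wt and 82.4 CPM of PSPH against 72.3. Within wt (4 means) r was 0.997 to 0.999 for all pairs, and within cis SSP it was 0.89 to 0.99. Within cis, PHGDH and PSPH had an r of 0.93, while PSAT1 had 0.16 with PHGDH and -0.07 with PSPH. In cis cells PSAT1 was the member that did not follow.

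The ratio of the counts of 2 genes within a library does not depend on normalization and can be read library by library. There were 1.87 to 1.96 PSAT1 counts per PHGDH count in wt and 2.01 to 2.03 in wt -SG. With carboplatin the ratio was 2.47 to 2.62 in wt carbo and 2.53 to 2.66 in wt -SG carbo, and the ranges of both media overlapped. In cis cells the ratio was 4.72 to 4.87, the highest of the untreated lines, and 5.36 to 5.47 in cis carbo. It was 3.46 to 3.70 in cis -SG and 3.92 to 4.03 in cis -SG carbo, with no overlap between media. In cis SSP it was 2.33 and 2.42 apart from library 25 (1.63), and in cis SSP -SG 2.89 and 2.90 apart from library 32 (1.99). In cis SSP carbo and cis SSP -SG carbo it was 3.0 to 3.09 and 2.91 to 2.98. PSPH counts per PHGDH count were 0.146 to 0.158 in wt and wt -SG, 0.255 to 0.290 in both wt carboplatin conditions and 0.518 to 0.657 in cis conditions. They were 0.395 to 0.414 in cis SSP carbo and 0.299 to 0.310 in cis SSP -SG carbo, without overlap. Among the 3 enzymes, libraries 25 and 32 thus stood apart in PHGDH and PSPH, whereas their PSAT1 levels (662 and 1597 CPM) lay close to those of their partners. By the chi-square over all genes these libraries stood apart as a whole.

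**Figure D4:**
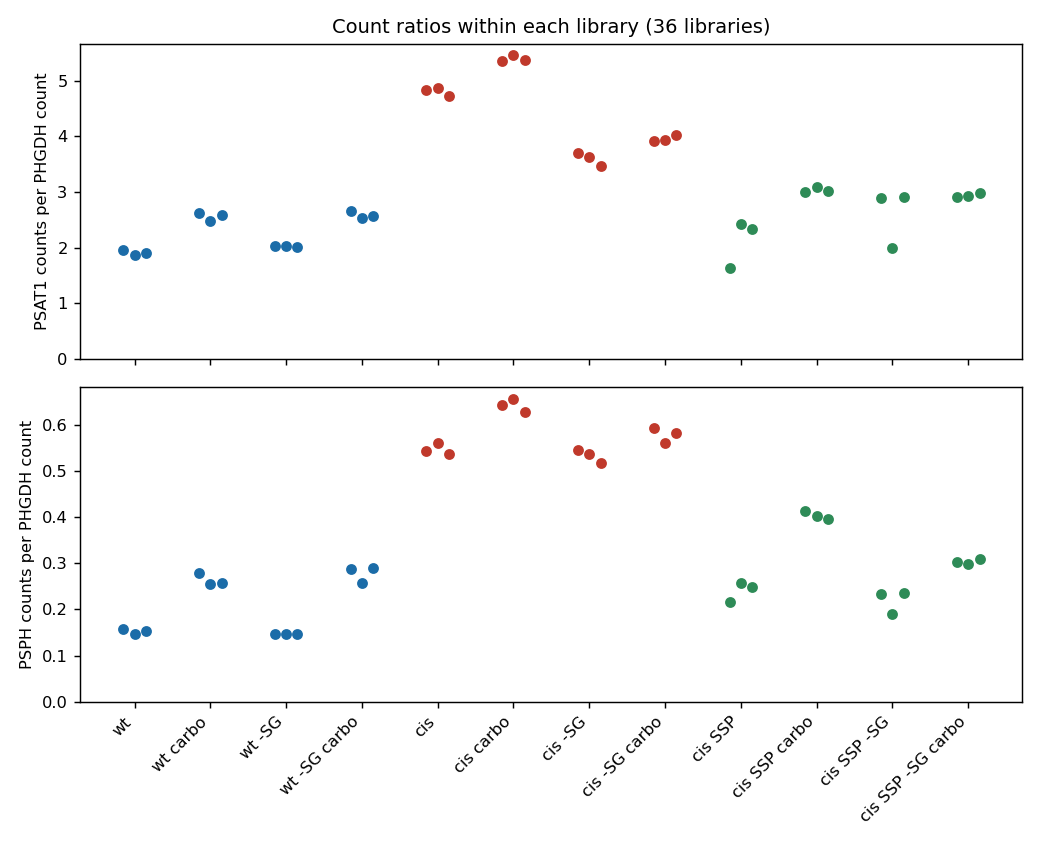
PSAT1 counts per PHGDH count (top) and PSPH counts per PHGDH count (bottom) in each of 36 libraries over the 12 conditions, with wt in blue, cis in red and cis SSP in green. Both ratios are highest in cis cells, and both are higher with than without carboplatin in wt cells in either medium; the low points of cis SSP and cis SSP -SG in the upper plot are libraries 25 (1.63) and 32 (1.99).

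Other genes with a similar pattern were ranked by Pearson r over the 12 condition means, among 10723 genes. The enzymes were not the closest to each other: PSAT1 ranked 159th and PSPH 2356th for PHGDH. For PSAT1, PHGDH ranked 64th and PSPH 69th, and for PSPH, PSAT1 ranked 479th and PHGDH 3408th. The means ranked here were not centred on line. The genes most like PHGDH were PMPCB (r = 0.95), a subunit of the mitochondrial processing peptidase, TMEM129 (0.95), IFT80 (0.94), C2orf68 (0.93) and ATF6B (0.93). PSAT1 was followed most closely by HAX1 (0.96), PCK2 (0.94), the mitochondrial PEP carboxykinase, JDP2 (0.91), VLDLR (0.90) and ERP29 (0.89). For PSPH they were MTHFD2 (0.97), a mitochondrial folate enzyme that uses the one-carbon units of serine, CBS (0.97), which joins serine to homocysteine, GPT2 (0.97), an alanine aminotransferase, GRB10 (0.96) and SEC63 (0.95). PCK2 and VLDLR belong to the ATF4 response list below, and MTHFD2, CBS and GPT2 to the lists of folate, serine use and substrate genes.

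Genes of the amino acid response were then set beside the enzymes. The list of 23 held ATF4 itself and genes that respond to it, the 3 enzymes not among them. In cis cells under carboplatin, deprivation raised 22 of 23 and lowered 1, ALDH18A1, with a median log2 fold change of 0.79 against 0.01 over all genes. Of all genes 35.2% were called higher there and 35% lower. In cis SSP cells deprivation raised 17 and lowered 1 of 22, with a median of 0.47, where 4.93% of all genes were called higher and 4.83% lower. In wt cells under carboplatin 0 of 22 were called in either direction by edgeR (median -8.80e-04). Since 0.720% of all genes were called there, this count is near the background. At an unadjusted p under 0.05, 1955 genes of the whole table passed in that comparison, and DESeq2 gave none of the 3 enzymes either. Without library 11, 4 list genes were called higher and 5 lower, with 10.8% of all genes called. Without carboplatin, deprivation raised 17 and lowered 3 of 22 in wt cells (median 0.47), where 49.2% of all genes were called. In cis cells it raised 20 and lowered 1 of 22 (median 1.11), where 75% of all genes were called. In cis SSP cells it raised 2 of 22 (0.0218% of all genes called), or 20 of 22 without libraries 25 and 32 (35.9% called). ASNS, the asparagine synthetase, rose from 344 ± 5.62 to 480 ± 3.5 CPM on deprivation of wt cells (0.48 ± 0.0226, adjusted p = 8.06e-13), but was at 145 ± 2.61 and 137 ± 6.82 CPM in both carboplatin media (SD, n = 3, adjusted p = 0.453 by edgeR). The ATF4 transcript itself was 359 ± 6.79 and 350 ± 25.1 CPM there.

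**Figure D5:**
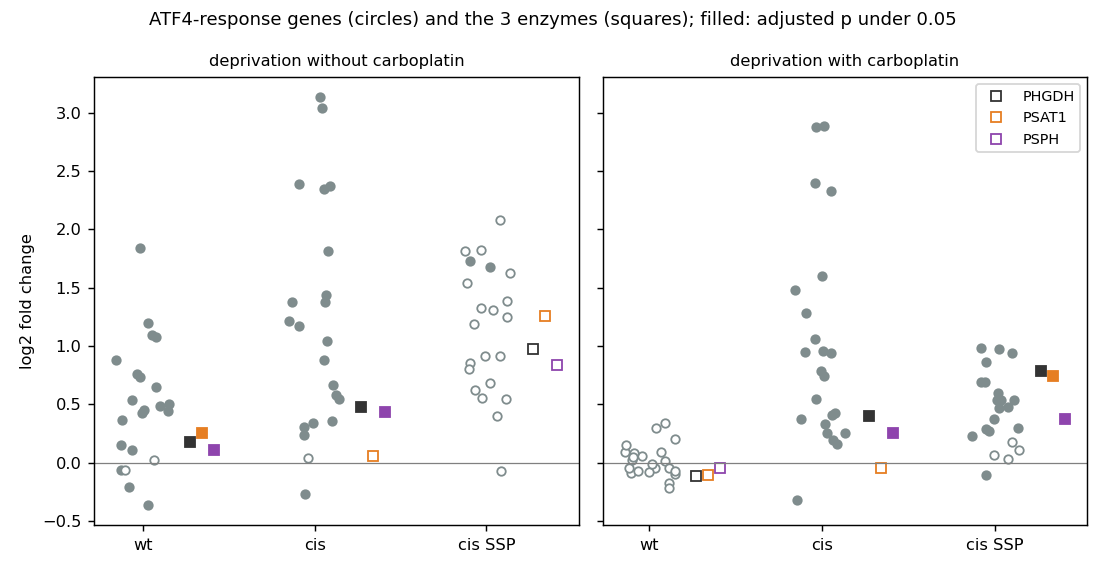
Log2 fold change on serine/glycine deprivation (vertical axis) in wt, cis and cis SSP cells, without carboplatin on the left and with it on the right. Circles are ATF4-response genes, ATF4 included, and squares are PHGDH, PSAT1 and PSPH. Filled symbols passed an adjusted p under 0.05. With carboplatin 0 of 22 list genes pass in wt, 23 of 23 in cis and 18 of 22 in cis SSP cells, against 0.720%, 70.2% and 9.76% of all genes.

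In deprived wt cells carboplatin lowered 15 and raised 3 of the 22 tested genes of this list (median -0.56). Of all genes 34.6% were called lower there and 34.3% higher. PCK2 fell by 1.85 ± 0.0621 and SLC7A11, the cystine importer, had a log2 fold change of -2.37 ± 0.119, whereas GDF15, a stress-secreted factor that p53 also induces, rose by 3.64 ± 0.121 and the transcription factor ATF3 by 2.51 ± 0.0727. In cis cells the same comparison had 10 lower and 3 higher of 23, where 11.6% of all genes were called lower and 10.9% higher. The list median was -0.10, or -0.04 without libraries 23 and 24. In cis SSP cells 6 were lower and 1 higher of 22 (median -0.74), where 1.47% of all genes were called. Without library 32, when 41.1% of all genes were called, 18 were lower (median -0.53).

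Serine and glycine transporters of the cell surface and, as SFXN1 and SFXN3, of mitochondria numbered 8 or 9 tested of 11. Carboplatin lowered 8 and raised 1 of 9 in deprived wt cells, where 68.9% of all genes were called. In deprived cis cells 3 of 9 were lower (22.5% of all genes called). The list median there was -0.11 on the log2 scale, or -0.08 without libraries 23 and 24. In deprived cis SSP cells 1 of 8 was lower (1.47% of all genes called), but without library 32, when 41.1% of all genes were called, 7 of 8 were lower and 1 was higher. The glycine transporter SLC6A9 fell by 1.94 ± 0.0592 on the log2 scale in wt cells. Deprivation under carboplatin raised SLC1A4, a neutral amino acid exchanger that carries serine, from 84.5 ± 2.10 to 153 ± 7.95 CPM in cis and from 57.9 ± 3.03 to 91.9 ± 3.57 CPM in cis SSP cells, and it was 30.3 ± 1.15 and 31.1 ± 0.539 CPM in wt cells (SD, n = 3). The related SLC1A5 rose in cis SSP cells (0.40 ± 0.0282) and was not called in cis cells (-0.06, adjusted p = 0.307). SFXN1, the mitochondrial serine carrier, fell by 0.90 ± 0.0376 in cis and, at -0.15 ± 0.0296, in cis SSP cells. In all, deprivation under carboplatin had 0 of 9 transporters called in wt cells (0.720% of all genes called). Without library 11 it had 1 higher (10.8% called). It had 4 higher and 1 lower of 8 in cis (70.2% called) and 5 higher and 1 lower of 8 in cis SSP cells (9.76% called).

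Enzymes that use serine and glycine, and those of folate metabolism, were counted in the same way. Of 15 tested serine and glycine users, deprivation under carboplatin raised 5 and lowered 6 in cis cells, near the background of 70.2%, and raised 4 in cis SSP cells, where 9.76% of all genes were called. SHMT2, the mitochondrial enzyme that splits serine, fell from 315 ± 13.6 to 214 ± 6.35 CPM in cis cells and rose from 250 ± 1.79 to 291 ± 4.71 CPM in cis SSP cells (SD, n = 3), and it was 195 ± 5.60 and 195 ± 5.92 CPM in wt cells. Of 11 folate genes, 3 were higher and 4 lower in cis, again near the background, and 5 higher in cis SSP cells. ALDH1L2, a mitochondrial formyl-folate dehydrogenase, rose by 1.28 ± 0.0372 and 0.91 ± 0.0364 in these lines. MTHFD2 rose by 0.46 ± 0.0282 in cis SSP and was not called in cis cells (0.06, adjusted p = 0.108). In wt cells 0 of 15 and 0 of 11 were called, against 0.720% of all genes. Without library 11 there was 1 lower in each list, where 10.8% of all genes were called. Carboplatin in deprived wt cells lowered 8 and raised 5 of 15 users, with SHMT1 at -1.97 ± 0.0662 and the glycine decarboxylase GLDC at 1.61 ± 0.0631, and lowered 8 and raised 1 of 11 folate genes, where 68.9% of all genes were called.

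A further list held 11 genes around the substrates of the pathway, those of glycolysis above and below 3-phosphoglycerate and those of glutamate metabolism. Deprivation under carboplatin lowered 9 and raised 1 of them in cis cells, where 70.2% of all genes were called, with PGAM1, which acts below 3-phosphoglycerate, at -0.79 ± 0.0503 and PGK1, which makes it, at -0.76 ± 0.0388, and a median of -0.37. It lowered 2 and raised 2 in cis SSP cells, where 9.76% of all genes were called. The interaction between these lines called 10 of 11 higher in cis SSP cells, where 56.3% of all genes were called in either direction. In wt cells 0 of 11 were called, where 0.720% of all genes were. Without library 11, when 10.8% of all genes were called, 4 were higher. Carboplatin in deprived wt cells raised 6 and lowered 2 of 11, where 68.9% of all genes were called. It raised BPGM by 1.09 ± 0.0744 and the pyruvate kinase PKM by 0.98 ± 0.0459, and lowered GPT2 (-1.08 ± 0.0517) and GLUD1 (-0.36 ± 0.0526). In deprived wt cells PKM, which acts in glycolysis below 3-phosphoglycerate, and the serine synthesis enzymes thus changed in opposite directions under carboplatin. GPT2 and GLUD1 changed in the same direction as the enzymes, and the calls of the list were near the background.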

How the data were processed

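RNA-seq was performed by the authors on wt, cis and cis SSP A2780 cells in 12 conditions of 3 libraries. Per the paper and the labels, STAR alignments to the GRCh37.p13 genome were counted by HTSeq over exons (annotation GENCODE v19), and the authors deposited raw counts per gene and library. Their methods name protein-coding genes, while the table lists 57820 genes, with 97.7% of counts on protein-coding ones. The strand setting and the handling of reads with several alignments are not given in the sources used here. Samples were grouped by their labels, which give no replicate numbers within a condition. Rows that name no gene (3) stayed out of library sizes and tests, and the row of reads on no feature held 4.21% to 17.9% of a library. Total counts of 13074937 to 20441582 per library set the counting error. Symbols and positions came from GENCODE v44 mapped to GRCh37 (55538 of 57820 identifiers matched).

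The 3 members and the gene lists were chosen with earlier results of these data known. Each of 21 comparisons (14 of 2 conditions, 7 interactions) was fitted with edgeR 4.0.16 in R 4.3.3 on its own libraries (TMM, filterByExpr, estimateDisp, robust glmQLFit, glmQLFTest), with Benjamini-Hochberg adjustment over all genes tested and a threshold of 0.05. The SE is the absolute log2 fold change over the square root of F, and intervals are 95%. Levels are CPM scaled by TMM over the 36 libraries, per kilobase of the canonical transcript where genes are compared. Correlations used means of log2 CPM, with a pseudocount of 0.5 for the ranking over genes with at least 10 CPM in 1 condition. Neighbours had a mean of at least 10 counts. From each list at most 2 called genes in each direction were named, besides ATF4, ASNS, SLC1A4, SLC1A5, SHMT2 and MTHFD2.

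Alternatives were DESeq2 1.42.0 (Wald test), edgeR with the DESeq2 size factors or with totals in place of TMM, no filter, at least 10 counts in every library, a fit over the 36 libraries, and leaving out libraries. List counts and the enzyme results given without libraries 11, 23 and 24, or 25 and 32 (or the 1 of these in a comparison) were added after seeing the data. The scripts were tested on simulated data.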

Additional observations from a re-analysis of the deposited data

Results flagged for a closer look

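In the 7 interactions, 11 of the 21 member results passed the test of a difference between 2 responses at an adjusted p under 0.05 (edgeR). A call was common in most of these comparisons, at 27.7% of all genes for the media in wt cells, 50.9% and 56.3% for deprivation in cis against wt and in cis SSP against cis, and 55.4% and 2.64% for carboplatin in the same pairs of lines. Between media in wt cells, the carboplatin response was lower without serine and glycine by -0.29 on the log2 scale for PHGDH and by -0.35 for PSAT1. Between cis and wt cells, the response to deprivation under carboplatin was higher in cis by 0.48 for PHGDH and 0.26 for PSPH. Between cis SSP and cis cells it was higher in cis SSP by 0.40 for PHGDH, 0.80 for PSAT1 and 0.14 for PSPH, and the PSPH value lost its call under 7 alternatives and in 7 of 12 fits that left out 1 library. The carboplatin response without serine and glycine was higher in cis than in wt cells by 1.40 for PHGDH, 1.18 for PSAT1 and 0.60 for PSPH. In cis SSP against cis cells it was lower by -0.54 for PSAT1, a call lost without libraries 23 and 24. With 3 libraries a condition, no condition was tested for a single library far from the others.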

How the results depend on the processing

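Members were recomputed in 411 combinations of result and setting other than leaving out 1 library, of which 351 kept direction and call, 21 lost and 32 gained a call and 7 turned in sign, all 7 for values not called to begin with. No paired analysis was possible because the labels give no replicate numbers that link libraries across conditions. The libraries being technical replicates, no setting tests the spread between cultures, and depth limits small changes of PSPH, the least abundant member. Unless a value below shows it (fewer libraries), the cause was not tested. Values are log2 fold changes.
In 1 fit over the 36 libraries, calls were lost for carboplatin without serine and glycine in cis cells (PHGDH -0.28, PSAT1 -0.14, PSPH -0.15), for deprivation alone in wt cells (PHGDH 0.17, PSPH 0.11), for carboplatin in complete medium in cis cells (PHGDH -0.23), for the medium interaction in wt cells (PHGDH -0.28), and for the deprivation interactions of PSPH (0.24 in cis against wt, 0.16 in cis SSP against cis). Calls were gained in cis SSP cells for carboplatin without serine and glycine (PHGDH -0.96, PSPH -0.47), deprivation alone (0.97, 1.25 and 0.83 for PHGDH, PSAT1 and PSPH), carboplatin in complete medium (PHGDH -0.78, PSAT1 -0.22), the medium interaction (PSAT1 -0.51, PSPH -0.46) and the carboplatin interaction against cis cells (PHGDH -0.69). Signs turned for PSAT1 on deprivation of cis cells (-0.0038) and for PSPH under carboplatin in complete medium in cis SSP cells (-0.0088) and in cis SSP against cis (0.016). Genes called in this fit numbered 1141 for carboplatin without serine and glycine in cis and 2860 in cis SSP, 96 for deprivation with carboplatin in cis SSP, 2821 and 1530 for deprivation alone in wt and cis SSP, 401 and 3090 for carboplatin in complete medium in cis and cis SSP, 1535, 112 and 204 for the medium interaction in wt, cis and cis SSP, and 5354 and 1361 for the deprivation and carboplatin interactions of cis SSP against cis.
With DESeq2, PSPH lost its call for carboplatin without serine and glycine in cis (-0.16), deprivation alone in wt (0.11) and the deprivation interaction of cis SSP against cis (0.13). It gained calls in cis SSP cells for carboplatin without serine and glycine (PHGDH -0.94, PSPH -0.45), deprivation alone (0.99, 1.27 and 0.85), carboplatin in complete medium (PHGDH -0.74), the medium interaction (PSAT1 -0.53) and the carboplatin interaction against cis (PHGDH -0.66), and PSPH in cis SSP against cis turned to 0.012. Its counts were 2162 and 576 genes for carboplatin without serine and glycine in cis and cis SSP, 690 for deprivation with carboplatin and 105 for deprivation alone in cis SSP, 1349 and 722 for carboplatin in complete medium in cis and cis SSP, 62 for the medium interaction in cis SSP and 792 for the carboplatin interaction of cis SSP against cis.
With total counts, PSPH lost calls for carboplatin without serine and glycine in cis (-0.12) and the deprivation interaction of cis SSP against cis (0.023). Calls were gained for PSAT1 on deprivation of cis cells (0.087), PHGDH under carboplatin in complete medium in cis SSP (-0.79), PHGDH in cis against wt (0.18) and PSPH in cis SSP against cis (-0.14). Signs turned for PSAT1 on deprivation with carboplatin in cis (0.040) and PSPH under carboplatin in complete medium in cis SSP (-0.030), and 1 gene was called for deprivation alone in cis SSP. With DESeq2 size factors PSPH had 0.11 in the deprivation interaction of cis SSP against cis (call lost) and -0.17 in the medium interaction of cis (call gained). Without a filter, PHGDH was called for carboplatin without serine and glycine in cis SSP (-0.95), calls of PSPH (0.098) and PSAT1 (-0.52) were lost in the deprivation and carboplatin interactions of cis SSP against cis, PSPH in cis SSP against cis was 0.017, and 545, 5 and 1 genes were called for deprivation with carboplatin in wt, deprivation alone in cis SSP and the medium interaction in cis SSP. With at least 10 counts in every library, PSAT1 on deprivation of cis (0.084) and PSPH in the medium interaction of cis (-0.16) were called and PSPH in the deprivation interaction of cis SSP against cis was not (0.068).
Without libraries 23 and 24, calls were lost for PSPH under carboplatin without serine and glycine in cis (-0.065), PSPH in the deprivation interaction (0.023) and PSAT1 in the carboplatin interaction (-0.61) of cis SSP against cis, the last with 26 genes called. Without libraries 25 and 32 all members gained a call in cis SSP for deprivation alone (0.96, 1.25 and 0.86, 4996 genes) and the medium interaction (-0.18, -0.51 and -0.48, 2167 genes).
Leaving out 1 library at a time gave, for carboplatin without serine and glycine, PSAT1 -0.15 to -0.11, PSPH -0.19 to -0.11 and 1666 to 5224 genes in cis, and PHGDH -1.05 to -0.72, PSAT1 -0.73 to -0.69, PSPH -0.50 to -0.34 and 0 to 5679 genes in cis SSP (the highest without library 32). The calls of PSPH in cis and of PSAT1 in cis SSP were each lost in 5 of 6 of these fits. For deprivation with carboplatin it gave PHGDH -0.16 to -0.083, PSAT1 -0.13 to -0.088 and 0 to 1583 genes in wt (the highest without library 11), PSAT1 -0.090 to -0.019 in cis and 685 to 1394 genes in cis SSP. Deprivation alone gave PSPH 0.10 to 0.12 in wt, PSAT1 0.039 to 0.064 in cis and 0 genes in every fit of cis SSP. Carboplatin in complete medium gave 1755 to 2554 genes in cis, and PHGDH -0.85 to -0.55, PSAT1 -0.21 to -0.17, PSPH -0.030 to 0.13 and 9 to 5835 genes in cis SSP (the highest without library 25). In the combined condition PHGDH was -0.0041 to 0.086 in cis against wt and PSPH -0.048 to 0.062 in cis SSP against cis. The medium interaction gave PHGDH -0.13 to -0.037, PSAT1 -0.15 to -0.073, PSPH -0.26 to -0.15 and 1334 to 3594 genes in cis, and PHGDH -0.37 to 0.011 and 1 to 10 genes in cis SSP. The deprivation interactions gave PSAT1 -0.021 to 0.079 in cis against wt and PSPH 0.075 to 0.19 in cis SSP against cis. The carboplatin interaction of cis SSP against cis gave PHGDH -0.72 to -0.47, PSAT1 -0.63 to -0.50, PSPH -0.37 to -0.19 and 126 to 4589 genes.
Among the correlations, r of PHGDH with PSAT1 was 0.95 without cis and 0.69 without cis SSP cells. That of PHGDH with PSPH was 0.62, 0.77 and 0.052 without wt, cis and cis SSP, and that of PSAT1 with PSPH 0.85, 0.90 and 0.67, or 0.76 without the 3 combined conditions. Centred on line, PHGDH with PSAT1 was 0.88 without wt, PHGDH with PSPH 0.89 without wt and 0.98 without cis SSP, and PSAT1 with PSPH 0.893, 0.995 and 0.906 without wt, cis and cis SSP, or 0.93 without libraries 25 and 32.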
